A study of Mus musculus with 10 samples.

Results

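The genes described here are those of transforming growth factor beta (TGF-beta) and bone morphogenetic protein (BMP) signalling. They were chosen by symbol alone: the Tgfb, Bmp, Gdf, Inh, Acvr, Bmpr, Smad, Ltbp, Grem, Chrd and Fst families with Bmper, Id1 to Id4, Bambi, Nog and Eng. The rule took 76 of the 25233 entries with a gene symbol and used no measured value. Of these, 58 passed the filter on low values and were tested, 12 had more than 3 reads in some library but did not pass, 2 never had more than 3 reads, and 4 had no read at all.

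RNA was sequenced from hepatic stellate cells (HSCs), the vitamin A-storing pericytes of the liver, which were isolated from male C57BL/6J mice by enzymatic digestion, a density gradient and sorting on the fluorescence of the cells themselves. Hypertrophied HSCs (hypHSCs) came from mice on CDAHFD, a fat-rich diet without choline that brings on steatohepatitis and fibrosis, and quiescent HSCs (qHSCs) came from mice on standard diet. The 5 hypHSC libraries were made after 13 weeks of diet at 19 weeks of age (replicates 1 and 2) or after 12 weeks at 18 weeks of age (replicates 3, 4 and 5). The 5 qHSC libraries came from mice of 36 weeks (replicates 1, 2 and 5) or 34 weeks (replicates 3 and 4). Diet therefore cannot be told apart from age, from the digestion or from the gate, since hypHSCs were sorted on green and qHSCs on blue fluorescence. Preparations were picked for their RNA quality, nothing states which mice each came from, and the p-values below measure the spread between these preparations only.

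Ligands of the family are secreted as dimers. They bring type I and type II receptor kinases together, sometimes with the help of co-receptors such as endoglin or betaglycan, and the type I kinase phosphorylates receptor-regulated SMADs. TGF-betas and activins act mainly through SMAD2 and SMAD3, and BMPs through SMAD1, SMAD5 and SMAD9, which join SMAD4 in the nucleus. Id genes, which code for inhibitors of basic helix-loop-helix factors, are classical BMP targets, and inhibitory SMADs, decoy receptors and secreted antagonists limit the signal. In the liver, TGF-beta is the best known driver of HSC activation and collagen deposition, and stellate cells are a known source of BMP9, which acts on endothelial cells and Kupffer cells.

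Libraries held 30534719 to 47317028 reads on entries with a symbol, and mitochondrial entries took 2.21% to 12.8% of the reads in hypHSCs and 1.25% to 1.61% in qHSCs. The labelled cell type was checked against marker lists. The 12 quiescent HSC markers summed to 32070 to 61126 normalized counts in hypHSCs and 1361931 to 2259574 in qHSCs, and all 12 were lower in hypHSCs. The 13 macrophage markers summed to 1070952 to 1570732 normalized counts in hypHSCs and 5602 to 116044 in qHSCs, and all 13 were higher in hypHSCs. Every marker of both lists was read in some hypHSC library. However, Hhip had at most 4 reads in any hypHSC library and a median of 0, and the lowest hypHSC values of Gfap and Ngfr were 0. In each of the 5 libraries labelled hypHSC the macrophage markers thus summed to more than the HSC markers, and "hypHSC" below names the label. Among the qHSCs, replicates 4 and 1 had the highest macrophage sums, 116044 and 50819, and the other three had 5602 to 10743. These sums move with every difference between the groups described here, and their part in those differences was not tested. In bulk libraries, fewer cells of a type and less RNA per cell cannot be told apart.

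**Figure D1:**
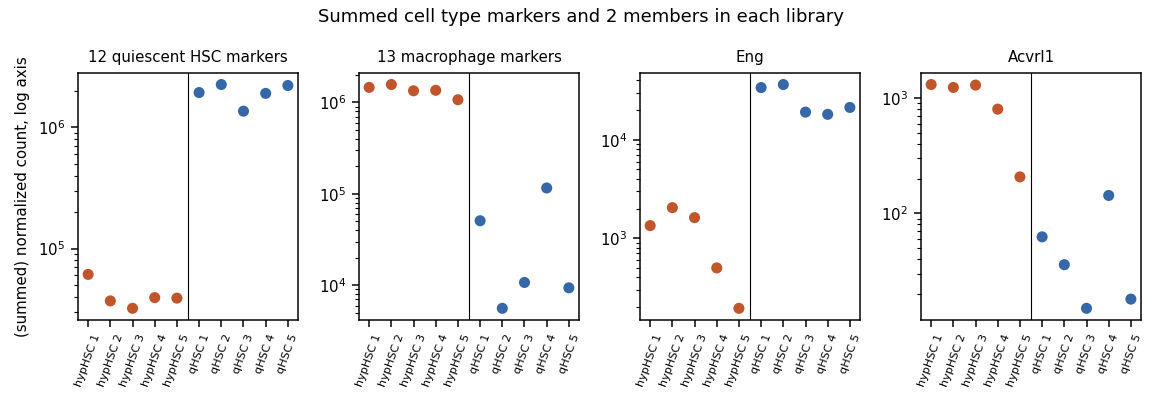
Summed normalized counts of the 12 quiescent HSC markers and the 13 macrophage markers, and the normalized counts of Eng and Acvrl1, in each of the 10 libraries on log axes (hypHSCs left of the line, qHSCs right). The HSC marker sum and Eng are higher in all 5 qHSCs, and the macrophage marker sum and Acvrl1 are higher in all 5 hypHSCs.

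Of the 58 tested members, 6 rose and 27 fell in hypHSCs, where a call needed a log2 fold change of at least 1 in size and an adjusted p of at most 0.05 in limma. Over all 14630 genes tested, 17.8% were called higher and 21.7% lower, against 10.3% and 46.6% of the tested members. The median log2 fold change of the tested members was -1.47, and that of all genes tested was -0.20. Setting Acvr1c, whose hypHSC libraries were all at or under the floor of 3 reads, to its bound could not move this median, as its value and its bound both lie far below it. The 27 that fell include Inha and Acvr1c, which reached the filter on low values in qHSCs only. In 33 tested members, 32 of them called, the groups did not overlap. That is 56.9% of those tested, against 39.5% of all genes tested. The remaining 25 members were not called. The split depends on how libraries are scaled: 5 rose and 30 fell with libraries set to the same total, and 5 rose and 37 fell with libraries set to Hprt, Pgk1 and Actb, while all 33 called members kept their direction under the 4 scalings tried. Leaving out qHSC 1 and 4 gave 5 higher and 24 lower, hypHSCs of 12 weeks alone gave 5 and 28, and those of 13 weeks alone gave 7 and 24.

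**Figure D2:**
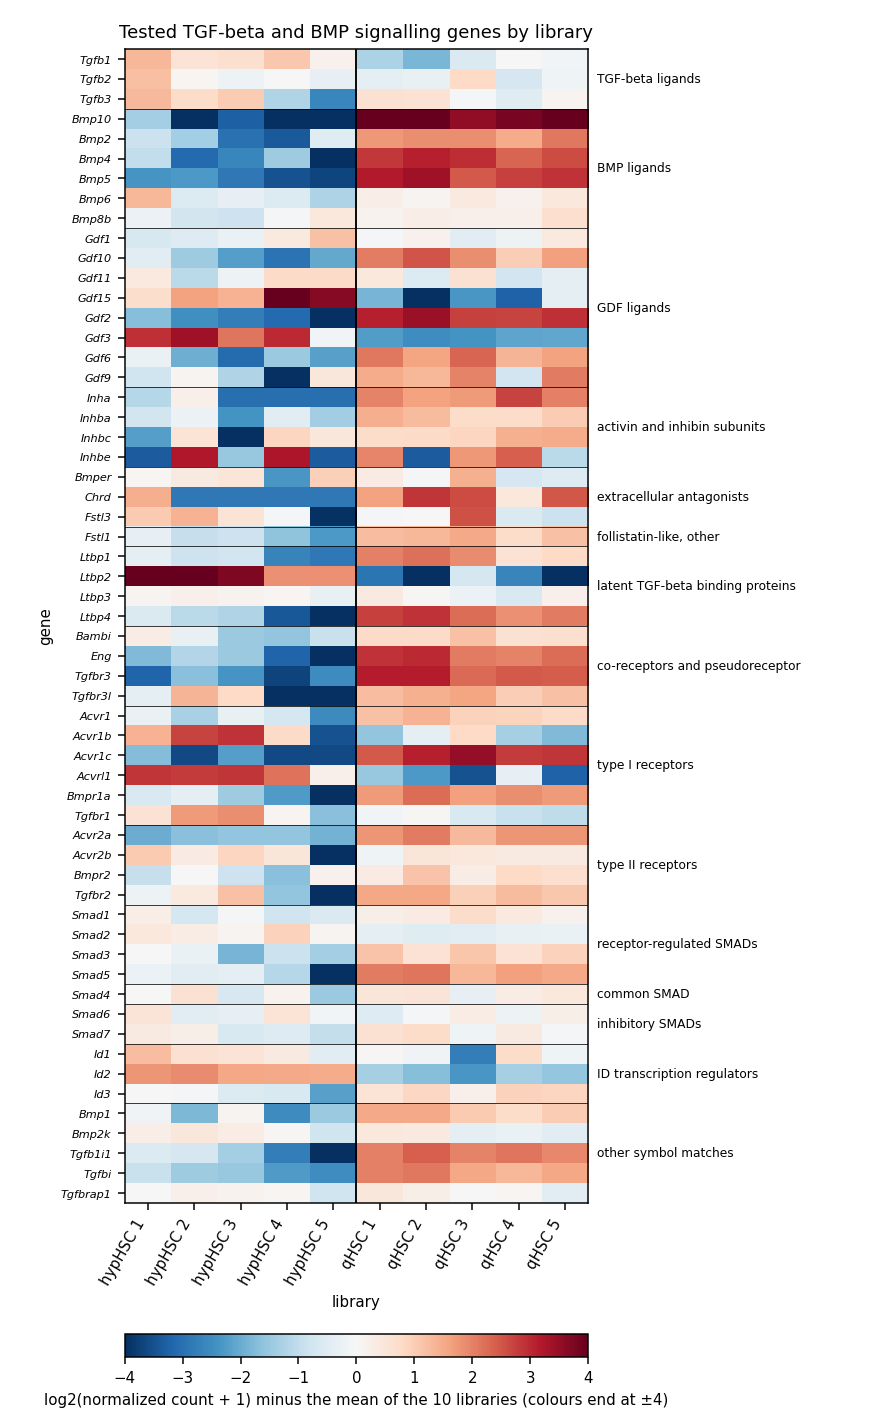
log2(normalized count + 1) of the 58 tested members in the 10 libraries, as the difference from each gene's mean over all libraries (colour, ending at ±4), with genes ordered by role. Most rows are blue in the 5 hypHSCs and red in the 5 qHSCs, and the 6 members called higher (Tgfb1, Gdf3, Gdf15, Ltbp2, Acvrl1 and Id2) show the opposite.

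Within the hypHSCs, the lowest value of a member was most often in replicate 5, for 32 of the 58 tested members, and the highest was most often in replicate 1, for 27. Replicate 5 also had the fewest genes detected, 14028, and the highest sum of hepatocyte markers, 94004, and replicate 1 the largest mitochondrial share, 12.8%. The part of these in the order of the libraries was not tested.

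The ligands are given first. Of 21 tested TGF-beta, BMP, GDF and activin genes, 3 rose and 9 fell. Counts by role, here and below, rest on few genes and stand beside 17.8% called higher and 21.7% called lower over all genes tested. Of the 6 tested genes named Bmp that code for ligands 4 fell and none rose. Gdf2, which codes for BMP9, was the most abundant ligand of the family in qHSCs, with 22422 normalized counts per kilobase of transcript, and Bmp5 came next with 2839.

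Gdf2 (chromosome 14, 33662994 to 33669155 in mm39) had 2593, 1549.8, 1242, 974 and 292 normalized counts in hypHSC 1 to 5 and 73863, 92598, 56567, 55591 and 63874 in qHSC 1 to 5. The groups were far apart, hypHSC 5 was the lowest library and hypHSC 1 the highest of its group. The gene was 62.6-fold lower in hypHSCs on the scale of the normalized count + 1 (log2 fold change -5.97, SE 0.47, adjusted p = 2.63e-06). Bmp10 (chromosome 6, 87405976 to 87411494), whose product shares the receptor of BMP9, had 12.1, 0, 2.49, 0 and 0 normalized counts in hypHSC 1 to 5 and 533, 656, 392, 465 and 675 in qHSC 1 to 5. It was read in hypHSC 1 and 3 only among the hypHSCs, and in all 5 qHSCs (log2 fold change -7.96, SE 0.73, adjusted p = 7.49e-06, and a log2 fold change of -8.61 without hypHSC 1). Gdf10 (chromosome 14, 33645544 to 33658471), a BMP3-like ligand whose entry lies 4.52 kb from that of Gdf2, had 532, 271, 159, 92.3 and 175 normalized counts in hypHSC 1 to 5 and 2987, 4201, 2656, 1455 and 2274 in qHSC 1 to 5. The highest hypHSC library stayed below the lowest qHSC library (log2 fold change -3.63, SE 0.44, adjusted p = 5.33e-05).

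Bmp5 (chromosome 9, 75682645 to 75807598) had 271, 286, 192, 124 and 109 normalized counts in hypHSC 1 to 5 and 12439.5, 14590.4, 7708, 9204 and 10430.1 in qHSC 1 to 5. All hypHSCs were below all qHSCs, and the fold, 57.9, was close in size to that of Gdf2 (log2 fold change -5.86, SE 0.30, adjusted p = 1.5e-07). Bmp4 (chromosome 14, 46620982 to 46628126), a ligand of mesenchymal tissues, had 106, 23.8, 34.1, 78.7 and 3.02 normalized counts in hypHSC 1 to 5 and 1509.7, 1832, 1653, 1062 and 1308 in qHSC 1 to 5. Its lowest value was in hypHSC 5, and the groups did not overlap (log2 fold change -5.53, SE 0.74, adjusted p = 0.000113, and a log2 fold change of -4.79 without hypHSC 5). Bmp2 (chromosome 2, 133394078 to 133404816), the closest relative of Bmp4, had 218, 155, 49.9, 37.8 and 283 normalized counts in hypHSC 1 to 5 and 1316, 1432, 1461, 1114 and 1734 in qHSC 1 to 5. Replicate 5, the lowest hypHSC library for most members, was the highest for Bmp2, and all hypHSCs were below all qHSCs (log2 fold change -3.62, SE 0.52, adjusted p = 0.000182). Gdf6 (chromosome 4, 9844372 to 9862345), a ligand of joint and eye development, had 87.6, 26.9, 11.6, 37.8 and 22.7 normalized counts in hypHSC 1 to 5 and 464, 319, 540.1, 272 and 324 in qHSC 1 to 5. The groups were apart here too (log2 fold change -3.58, SE 0.49, adjusted p = 0.00013). Bmp6 (15.1 to 94.3 in hypHSCs and 40.0 to 49.5 in qHSCs), Bmp8b (131 to 318 in hypHSCs and 259 to 378 in qHSCs), Gdf1 (129 to 457 in hypHSCs and 150.4 to 264 in qHSCs), Gdf9 (0 to 33.3 in hypHSCs and 13.7 to 104 in qHSCs) and Gdf11 (35.2 to 130.1 in hypHSCs and 44.5 to 117 in qHSCs) overlapped between groups and were not called. The Gdf1 entry is shared with Cers1, so its reads cannot be assigned to either gene.

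A pair of GDF ligands rose. Gdf15 (chromosome 8, 71082041 to 71085108), a stress-induced cytokine that acts through a receptor outside the family, had 454, 853, 730.1, 11651 and 3495 normalized counts in hypHSC 1 to 5 and 76.0, 7.67, 54.3, 28.2 and 216 in qHSC 1 to 5. Values in hypHSCs spanned a wide range, highest in hypHSC 4 and 5, and stayed above every qHSC (log2 fold change 5.11, SE 0.99, adjusted p = 0.00142, and a log2 fold change of 4.40 without hypHSC 4 or 4.5 without qHSC 2). Gdf3 (chromosome 6, 122582362 to 122587046), a ligand best known from early embryos and fat tissue, had 2632, 3601, 1537, 2752 and 322 normalized counts in hypHSC 1 to 5 and 72.4, 61.4, 64.6, 78.7 and 80.9 in qHSC 1 to 5. The qHSC values were tight, and each hypHSC library lay above them (log2 fold change 4.53, SE 0.56, adjusted p = 6.33e-05, and a log2 fold change of 5.12 without hypHSC 5).

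**Figure D3:**
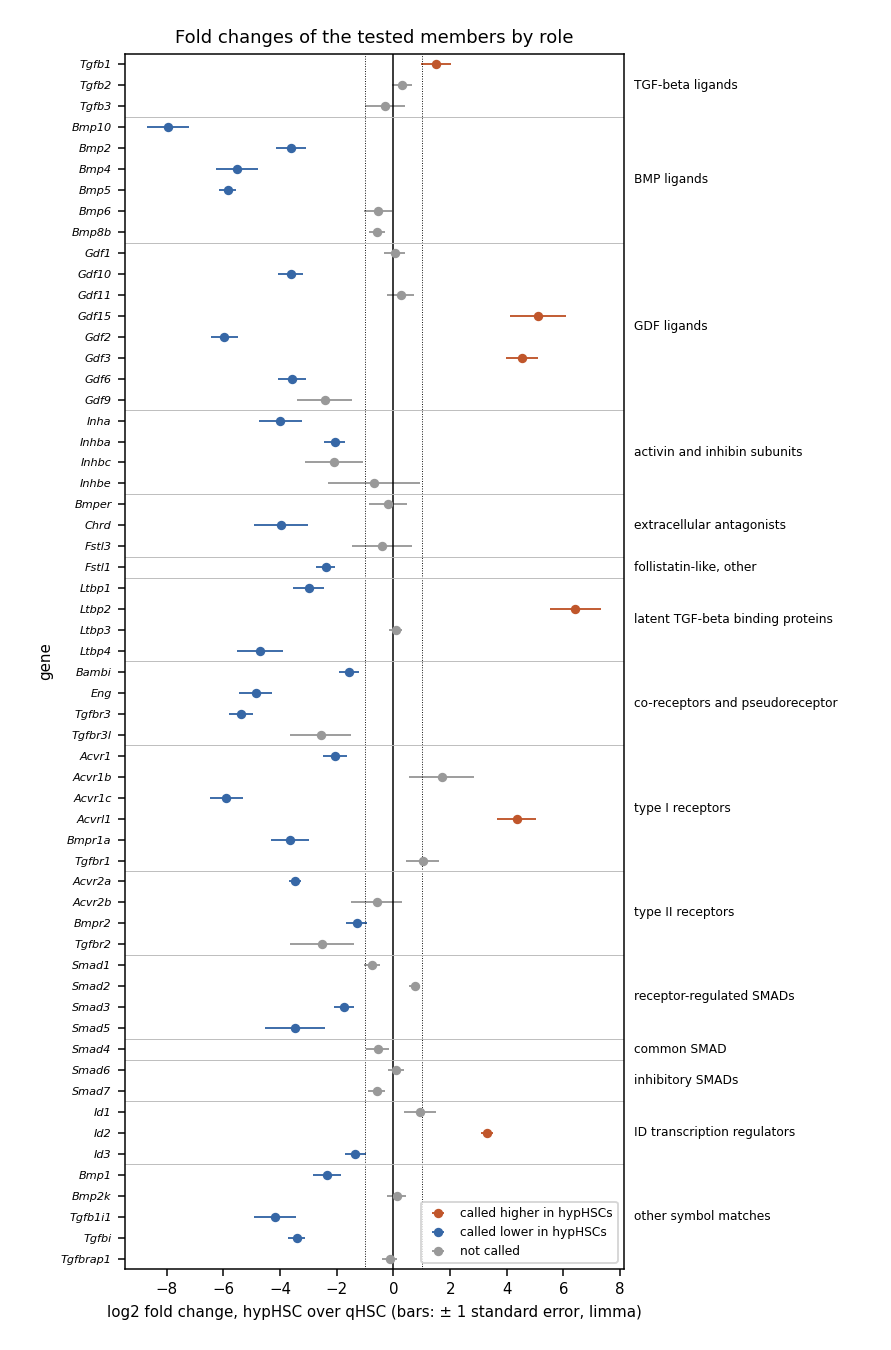
log2 fold change of each of the 58 tested members, hypHSC over qHSC, with 1 standard error to each side (limma), grouped by role and coloured by call; dotted lines mark a log2 fold change of 1 in either direction. Points lie left of 0 for most BMP ligands, co-receptors and type II receptors, from -7.96 for Bmp10 to 6.42 for Ltbp2.

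The TGF-beta ligands themselves were present at low levels in both groups, and 1 of 3, Tgfb1, rose. Tgfb2 (chromosome 1, 186354989 to 186438187) had 519, 238, 196, 225 and 180.0 normalized counts in hypHSC 1 to 5 and 172, 185, 388, 140.3 and 199 in qHSC 1 to 5. The groups overlapped, with hypHSC 1 and qHSC 3 high in their groups (log2 fold change 0.30, SE 0.37, adjusted p = 0.525), and the sign of the difference turned with libraries set to the same total, to Hprt, Pgk1 and Actb, or with hypHSCs of 12 weeks alone. Tgfb3 (chromosome 12, 86103518 to 86125815) had 377, 254, 309, 66.1 and 24.2 normalized counts in hypHSC 1 to 5 and 234, 227, 147, 109 and 166 in qHSC 1 to 5. The hypHSCs fell on both sides of the qHSCs, replicates 1 to 3 above all of them and 4 and 5 below all of them (log2 fold change -0.31, SE 0.70, adjusted p = 0.741), and the sign turned in DESeq2 and edgeR, at 13 weeks and without hypHSC 5. Tgfb1 (chromosome 7, 25386425 to 25404501), the classical profibrotic ligand, had 37.7, 21.7, 23.3, 31.5 and 16.6 normalized counts in hypHSC 1 to 5 and 5.43, 3.41, 9.45, 14.6 and 13.5 in qHSC 1 to 5. All hypHSCs were above all qHSCs, but every value was at most 37.7 normalized counts (log2 fold change 1.5, SE 0.54, adjusted p = 0.038). The call was lost in edgeR and in 7 of the 10 fits with a library removed, all but those without hypHSC 5, qHSC 4 or qHSC 5 (log2 fold changes of 1.24 to 1.55 where lost), and the entry lies inside that of Pou2f2 and overlaps an entry without a symbol that held more reads, so its level may be undercounted. Per kilobase and with the deposited scaling, the 3 TGF-beta ligands summed to 113 ± 60.8 in hypHSCs and 88.2 ± 19.5 in qHSCs, values that overlap within their SDs.

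Of the 4 tested activin and inhibin subunits, none rose and 2 fell. Inhba (chromosome 13, 16186436 to 16206193), the subunit of activin A, had 345, 484, 109.8, 419 and 219 normalized counts in hypHSC 1 to 5 and 1566, 1383, 963, 958 and 1158 in qHSC 1 to 5. Every hypHSC was below every qHSC, and hypHSC 3 was the lowest (log2 fold change -2.08, SE 0.38, adjusted p = 0.000908). Inha, the inhibin alpha subunit, ranged over 0 to 8.28 in hypHSCs and 23.9 to 52.2 in qHSCs (log2 fold change -4.00, SE 0.75, adjusted p = 0.00117). It reached the filter on low values in qHSCs only, so it was tested through the group in which it is higher, and its call is no independent support. The hepatic subunits Inhbc and Inhbe overlapped between groups, with 0 to 52.5 in hypHSCs and 48.0 to 80.9 in qHSCs for Inhbc and 0 to 92.3 in hypHSCs and 0 to 51.3 in qHSCs for Inhbe.

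Latent TGF-beta is held in the matrix by the latent TGF-beta binding proteins, and their genes did not move together: 1 rose, 2 fell and Ltbp3 was not called. Ltbp1 (chromosome 17, 75312524 to 75699960) had 1405, 1030.1, 1064, 284 and 249.6 normalized counts in hypHSC 1 to 5 and 7424, 8360.2, 6769, 2719 and 3139 in qHSC 1 to 5. Replicates 4 and 5 were the lowest of the hypHSCs, and the groups did not overlap (log2 fold change -3.00, SE 0.54, adjusted p = 0.000868). Ltbp4 (chromosome 7, 27004561 to 27037117) had 303, 212, 197, 42.0 and 9.07 normalized counts in hypHSC 1 to 5 and 3005, 3353, 2132, 1592 and 1903 in qHSC 1 to 5. Replicates 4 and 5 were again the lowest hypHSCs (log2 fold change -4.70, SE 0.81, adjusted p = 0.000672, and a log2 fold change of -3.91 without hypHSC 5). Ltbp2 (chromosome 12, 84829986 to 84923306), the member of this group that does not bind latent TGF-beta itself, had 1184, 799, 653, 174 and 174 normalized counts in hypHSC 1 to 5 and 5.43, 1.70, 29.1, 6.85 and 0 in qHSC 1 to 5. It was nearly absent from qHSCs apart from replicate 3 and was read in every hypHSC, again lowest in 4 and 5 (log2 fold change 6.42, SE 0.90, adjusted p = 0.000158, and a log2 fold change of 7.05 without qHSC 3 or 5.82 without qHSC 5). Ltbp3 ranged over 327 to 465 in hypHSCs and 267 to 518 in qHSCs.

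Few antagonists were read. Nog and Grem1, which code for the BMP traps noggin and gremlin 1, had no read in any library. Chrd, coding for chordin, was called lower (log2 fold change -3.97, SE 0.95, adjusted p = 0.00531, and a log2 fold change of -4.83 without hypHSC 1) although hypHSC 1 overlapped the qHSCs, and the call was lost in DESeq2 and edgeR and at 13 weeks. Chrd ranged over 0 to 18.9 in hypHSCs and 8.56 to 51.1 in qHSCs. Bmper (5.25 to 60.5 in hypHSCs and 18.8 to 83.5 in qHSCs) and Fstl3 (0 to 39.3 in hypHSCs and 7.49 to 89.0 in qHSCs) were not called. Fstl1 (chromosome 16, 37597399 to 37656855), a secreted glycoprotein of the follistatin-like group, had 2610.1, 1740.3, 1865, 1070.1 and 665 normalized counts in hypHSC 1 to 5 and 7761, 8208, 9293, 5479.8 and 7398 in qHSC 1 to 5. All hypHSCs were below all qHSCs (log2 fold change -2.39, SE 0.33, adjusted p = 0.000139).

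Most co-receptors were lower in hypHSCs. Of 4 tested members of this group, 3 fell and none rose, with a median log2 fold change of -3.72. Eng (chromosome 2, 32536607 to 32572681), coding for endoglin, which binds BMP9 and BMP10, had 1341, 2042, 1615, 498 and 194 normalized counts in hypHSC 1 to 5 and 33869, 36372, 19078, 18108 and 21284 in qHSC 1 to 5. The fall was 29.2-fold, and hypHSC 4 and 5 were below the others (log2 fold change -4.87, SE 0.57, adjusted p = 4.69e-05). Its entry shares 61 bases with that of Fpgs, whose mean was 2.04% of that of Eng.

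The promoter windows of the BMP9 and BMP10 genes, of Eng and of the pair of Id genes that moved in opposite directions are shown because these members stand at the start, the receptor step and the end of the BMP9 branch. Each line gives the 250 bases before the annotated start on the gene's own strand, 5′ to 3′, from RefSeq (GRCm38.p6), in which 54 of the 76 members had an entry. Capitals mark CAGAC or its reverse complement GTCTG, the letters of a SMAD-binding element, and GGCGCC, a GC-rich motif bound by SMADs in BMP target genes, which reads the same on both strands. The windows are chr14:33940789-33941038, plus strand, for Gdf2, chr6:87428744-87428993, plus strand, for Bmp10, chr2:32646345-32646594, plus strand, for Eng, chr12:25096093-25096342, minus strand, for Id2, and chr4:136143572-136143821, plus strand, for Id3.
Gdf2: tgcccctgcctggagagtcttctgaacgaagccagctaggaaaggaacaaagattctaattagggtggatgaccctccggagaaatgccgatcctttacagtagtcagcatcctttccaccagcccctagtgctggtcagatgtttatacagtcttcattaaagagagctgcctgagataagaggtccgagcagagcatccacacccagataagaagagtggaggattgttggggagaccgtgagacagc
Bmp10: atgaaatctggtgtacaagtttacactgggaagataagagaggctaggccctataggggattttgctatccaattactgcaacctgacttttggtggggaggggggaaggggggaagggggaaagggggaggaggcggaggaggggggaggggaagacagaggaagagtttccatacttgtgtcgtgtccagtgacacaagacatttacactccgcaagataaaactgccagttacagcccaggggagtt
Eng: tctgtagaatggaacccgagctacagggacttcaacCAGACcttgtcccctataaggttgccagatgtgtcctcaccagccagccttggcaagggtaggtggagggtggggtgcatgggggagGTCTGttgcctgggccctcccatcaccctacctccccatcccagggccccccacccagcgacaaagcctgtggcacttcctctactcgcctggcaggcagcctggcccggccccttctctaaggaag
Id2: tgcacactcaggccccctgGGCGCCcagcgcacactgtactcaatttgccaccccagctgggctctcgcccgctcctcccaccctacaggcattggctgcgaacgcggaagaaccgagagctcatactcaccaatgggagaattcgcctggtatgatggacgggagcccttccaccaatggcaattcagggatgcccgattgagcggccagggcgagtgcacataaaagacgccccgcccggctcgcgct
Id3: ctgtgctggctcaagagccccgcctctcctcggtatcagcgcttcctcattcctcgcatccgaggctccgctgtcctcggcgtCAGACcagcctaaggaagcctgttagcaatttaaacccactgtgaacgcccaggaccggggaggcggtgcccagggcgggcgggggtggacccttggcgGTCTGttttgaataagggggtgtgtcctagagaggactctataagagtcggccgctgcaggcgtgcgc

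Eng and Id3 each held CAGAC or GTCTG at 2 places, and Id2 held GGCGCC at 1 place and no CAGAC. Gdf2 and Bmp10 held neither. Of all 32851 windows of this length, 42.2% held CAGAC or GTCTG and 9.59% held GGCGCC, so the shorter motif in particular is common. Of the 67 windows of members, 49.3% and 22.4% held them. Whether either motif goes with the direction of change was not tested. The windows of Id2 and Id3 had the same GC content, 62.8%, and those of Gdf2 and Bmp10 had 50.4% and 52.0%.

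Tgfbr3 (chromosome 5, 107254433 to 107437495), coding for betaglycan, which presents TGF-beta2 and inhibin, had 10.8, 33.1, 20.0, 7.34 and 18.1 normalized counts in hypHSC 1 to 5 and 955, 965, 516, 599 and 581 in qHSC 1 to 5. It was the most reduced of the co-receptors, with no overlap (log2 fold change -5.38, SE 0.42, adjusted p = 2.52e-06). Bambi (chromosome 18, 3507933 to 3516404), a decoy receptor that lacks the kinase, had 631, 416, 184, 173 and 277 normalized counts in hypHSC 1 to 5 and 872, 881, 1150.2, 776 and 805 in qHSC 1 to 5. The difference was smaller but the groups did not overlap (log2 fold change -1.58, SE 0.35, adjusted p = 0.00307), and the call was lost with hypHSCs of 13 weeks alone, the 2 libraries with the highest Bambi of their group. Tgfbr3l, a paralogue of Tgfbr3, ranged over 0 to 43.5 in hypHSCs and 33.4 to 50.4 in qHSCs and was not called.

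The receptor kinases changed in make-up. Among the 6 tested type I receptors, 1 rose and 3 fell. Acvrl1 (chromosome 15, 101026401 to 101043217), coding for ALK1, the type I receptor of BMP9 and BMP10, had 1312, 1238, 1298, 803 and 207 normalized counts in hypHSC 1 to 5 and 62.5, 35.8, 15, 143 and 18.0 in qHSC 1 to 5. Every hypHSC was above every qHSC, and hypHSC 5 was well below the other hypHSCs (log2 fold change 4.35, SE 0.69, adjusted p = 0.000357). The highest qHSCs were replicates 4 and 1, the libraries with the highest macrophage marker sums, whose part was not tested. Of the other members that rose, Id2 was highest in these qHSCs too, Tgfb1 in qHSC 4 and 5, Gdf15 and Gdf3 in qHSC 5, and Ltbp2 in qHSC 3. Acvr1 (chromosome 2, 58278656 to 58457169), coding for ALK2, had 202, 98.3, 198, 150.0 and 40.8 normalized counts in hypHSC 1 to 5 and 556, 644, 468, 457 and 421 in qHSC 1 to 5. It was the leading type I receptor of qHSCs per kilobase and was lower in every hypHSC (log2 fold change -2.06, SE 0.42, adjusted p = 0.00183). Bmpr1a (chromosome 14, 34133025 to 34224516), coding for ALK3, had 55.2, 65.2, 30.8, 16.8 and 3.02 normalized counts in hypHSC 1 to 5 and 278, 401, 265, 312 and 276 in qHSC 1 to 5. The lowest value was again in hypHSC 5 (log2 fold change -3.64, SE 0.68, adjusted p = 0.0011, and a log2 fold change of -3.00 without hypHSC 5).

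Tgfbr1 (chromosome 4, 47353222 to 47414927), the type I receptor of TGF-beta, had 464, 1025, 1125, 336 and 98.3 normalized counts in hypHSC 1 to 5 and 289, 324, 205, 169 and 154 in qHSC 1 to 5. The values of hypHSC 1 to 4 were above all qHSCs and that of hypHSC 5 was below all of them (log2 fold change 1.03, SE 0.59, adjusted p = 0.175). Without hypHSC 5 it was called higher, as it was in DESeq2 and at 13 weeks. Acvr1c, coding for ALK7, ranged over 0 to 2.7 in hypHSCs and 66.1 to 138 in qHSCs and was at least 27.7-fold lower in hypHSCs, against the floor of 3 reads taken over the group. It too reached the filter in qHSCs only. Acvr1b, whose entry lies 28.7 kb from Acvrl1, ranged over 0 to 80.7 in hypHSCs and 2.25 to 18.1 in qHSCs and was not called (log2 fold change 1.71, SE 1.14, adjusted p = 0.241), though DESeq2, the 13-week libraries and the fit without hypHSC 5 called it higher.

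No type II receptor rose, and 2 of 4 fell. Acvr2a (chromosome 2, 48704121 to 48793276), a receptor of activins and several BMPs, had 88.9, 111, 118, 119.6 and 95.3 normalized counts in hypHSC 1 to 5 and 1220.0, 1492, 877, 1219 and 1216 in qHSC 1 to 5. The hypHSCs lay within a narrow range far below the qHSCs, and the standard error was among the smallest of the family (log2 fold change -3.48, SE 0.21, adjusted p = 4.26e-07). Bmpr2 (chromosome 1, 59802558 to 59918173), the BMP type II receptor, had 102, 190.5, 109, 60.9 and 221 normalized counts in hypHSC 1 to 5 and 246, 431, 239, 341 and 308 in qHSC 1 to 5. The highest hypHSC, replicate 5, was just below the lowest qHSC (log2 fold change -1.30, SE 0.37, adjusted p = 0.0138). Without qHSC 1 and 4 the log2 fold change was -1.35 but no longer called (adjusted p = 0.0543). Tgfbr2 (chromosome 9, 115913365 to 116004515), the TGF-beta type II receptor, had 59.3, 89.0, 156, 22 and 0 normalized counts in hypHSC 1 to 5 and 199, 199, 132, 164 and 144 in qHSC 1 to 5. hypHSC 5 had no read and hypHSC 3 reached the level of the qHSCs (log2 fold change -2.54, SE 1.13, adjusted p = 0.0859). It was called lower without hypHSC 3 (-3.15) or without hypHSC 5 (-1.32), at 13 weeks, with a pseudocount of 10 and with libraries set to Hprt, Pgk1 and Actb. Acvr2b (1.51 to 95.7 in hypHSCs and 40.7 to 64.8 in qHSCs) overlapped between groups.

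**Figure D4:**
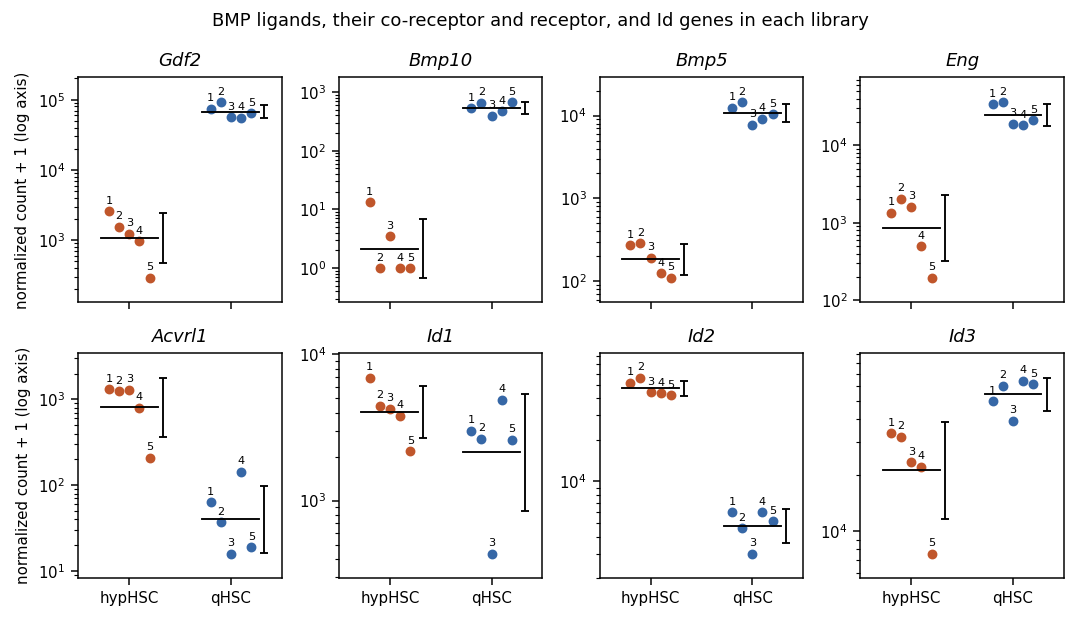
Normalized count + 1 on a log axis of 3 BMP ligands (Gdf2, Bmp10, Bmp5), endoglin (Eng), ALK1 (Acvrl1) and the Id genes; each point is a library labelled with its replicate number, the line is the mean of the log2 values and the bar 1 SD of them to each side. The 3 ligands, Eng and Id3 are lower in all 5 hypHSCs, Acvrl1 and Id2 are higher, and Id1 overlaps.

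Of 7 tested SMAD genes, none rose and 2 fell, both of them receptor-regulated. These are few genes, beside 17.8% called higher and 21.7% called lower over all genes tested. Smad3 (chromosome 9, 63554049 to 63665393) had 408, 331, 111, 220.3 and 156 normalized counts in hypHSC 1 to 5 and 898, 602, 862, 607 and 763 in qHSC 1 to 5. Each hypHSC was below each qHSC, with hypHSC 1 closest (log2 fold change -1.74, SE 0.35, adjusted p = 0.00175), and the call was lost at 13 weeks (log2 fold change -0.998). Smad5 (chromosome 13, 56850823 to 56890191) had 76.8, 66.3, 69.0, 39.9 and 0 normalized counts in hypHSC 1 to 5 and 384, 399.6, 229.9, 281 and 258 in qHSC 1 to 5. hypHSC 5 had no read, and the standard error was accordingly large (log2 fold change -3.48, SE 1.06, adjusted p = 0.0182). Without that library the log2 fold change was -2.29 and still called. Without qHSC 1 and 4 the log2 fold change was -3.405 but no longer called (adjusted p = 0.0771).

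Smad2 (chromosome 18, 76374772 to 76444818) had 619, 558, 495, 860.3 and 499 normalized counts in hypHSC 1 to 5 and 360.2, 329, 331, 369.7 and 384 in qHSC 1 to 5. All hypHSCs were above all qHSCs, but the fold was under the threshold (log2 fold change 0.74, SE 0.20, adjusted p = 0.011), and its sign turned with libraries set to Hprt, Pgk1 and Actb. Smad4 (chromosome 18, 73767861 to 73836862), the shared partner, had 119, 184, 76.5, 133 and 42.4 normalized counts in hypHSC 1 to 5 and 167, 173, 95.3, 149 and 163 in qHSC 1 to 5. The groups overlapped (log2 fold change -0.56, SE 0.41, adjusted p = 0.286). Smad1 (114 to 241 in hypHSCs and 228 to 332 in qHSCs) overlapped as well (log2 fold change -0.76, SE 0.28, adjusted p = 0.0437).

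The inhibitory SMADs, which feed back on both branches, were not called. Smad6 (chromosome 9, 63860358 to 63929341) had 311, 165, 172, 320.0 and 204 normalized counts in hypHSC 1 to 5 and 154, 210.4, 268, 192 and 260.0 in qHSC 1 to 5. The ranges overlapped almost fully (log2 fold change 0.08, SE 0.29, adjusted p = 0.832), and the sign turned with libraries set to the same total or to Hprt, Pgk1 and Actb and without hypHSC 1, hypHSC 4 or qHSC 1. Smad7 (chromosome 18, 75500433 to 75529005) had 484, 449, 247, 268 and 197 normalized counts in hypHSC 1 to 5 and 580.2, 636, 341, 489 and 365 in qHSC 1 to 5. Replicates 1 and 2 of the hypHSCs lay within the range of the qHSCs and the others below it (log2 fold change -0.60, SE 0.31, adjusted p = 0.134).

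The Id genes, at the end of the BMP branch, were among the most abundant members and went in different directions. Id2 (chromosome 12, 25143800 to 25146094) had 51553, 56076, 44108, 43270.1 and 41908 normalized counts in hypHSC 1 to 5 and 5982, 4571, 3011, 5987 and 5139 in qHSC 1 to 5. It was 9.82-fold higher, with hypHSCs in a narrow range and far above all qHSCs (log2 fold change 3.30, SE 0.21, adjusted p = 5.42e-07). Id3 (chromosome 4, 135871133 to 135874631) had 33627, 32164, 23469.9, 22245 and 7594 normalized counts in hypHSC 1 to 5 and 50059, 60604, 39151, 64373 and 61506 in qHSC 1 to 5. All hypHSCs were below all qHSCs, hypHSC 5 by the most (log2 fold change -1.36, SE 0.37, adjusted p = 0.0112), and without hypHSC 5 the log2 fold change was -0.99 and not called. Leaving out qHSC 1 and 4 also ended the call, at a log2 fold change of -1.31 (adjusted p = 0.0563). Id1 (chromosome 2, 152578171 to 152579330) had 6919, 4439, 4248, 3794 and 2169 normalized counts in hypHSC 1 to 5 and 3004, 2656, 433, 4905 and 2599 in qHSC 1 to 5. The groups overlapped: qHSC 4 was above 4 of the hypHSCs, hypHSC 5 was below 4 of the qHSCs, and qHSC 3 was far below the rest (log2 fold change 0.92, SE 0.56, adjusted p = 0.201). Its sign turned with libraries set to Hprt, Pgk1 and Actb. In qHSCs the highest values of Id1 were in replicates 4 and 1, the libraries with the highest macrophage marker sums, whose part was not tested.

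A further 5 symbols match the rule without coding for a ligand, receptor or SMAD, and 3 of them fell. Tgfbi (chromosome 13, 56757371 to 56787375), a matrix protein induced by TGF-beta, had 9213, 6409, 5925, 3585 and 3079 normalized counts in hypHSC 1 to 5 and 68439.8, 74382, 49928, 43109.5 and 49528 in qHSC 1 to 5. All hypHSCs were below all qHSCs (log2 fold change -3.42, SE 0.30, adjusted p = 5.86e-06). Tgfb1i1 (chromosome 7, 127845984 to 127854871), the focal adhesion protein Hic-5, had 429.9, 391, 244, 90.2 and 16.6 normalized counts in hypHSC 1 to 5 and 2539.7, 3263, 2474, 2766 and 2390.2 in qHSC 1 to 5. It was lowest in hypHSC 4 and 5 (log2 fold change -4.19, SE 0.74, adjusted p = 0.000787, and a log2 fold change of -3.43 without hypHSC 5). Bmp1 (chromosome 14, 70711698 to 70758112), a procollagen C-proteinase, had 151, 47.6, 182, 28.3 and 59.0 normalized counts in hypHSC 1 to 5 and 476, 481, 349, 276 and 342 in qHSC 1 to 5. The groups were apart (log2 fold change -2.33, SE 0.49, adjusted p = 0.00247). Bmp2k (83.2 to 198 in hypHSCs and 105 to 196 in qHSCs) and Tgfbrap1 (149.7 to 300.2 in hypHSCs and 196 to 360.2 in qHSCs) were not called.

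Because shares within a library do not depend on how libraries are scaled, each family was also described by its make-up, as normalized counts per kilobase of the canonical GENCODE transcript. These shares are descriptions without a test. Summed levels, unlike shares, do depend on the scaling, and they were not recomputed with other scalings. Among the 20 BMP and GDF ligands, Gdf2 held 16.4% ± 12.4 in hypHSCs and 82.5% ± 0.674 in qHSCs, Bmp5 1.97% ± 1.13 in hypHSCs and 10.4% ± 0.855 in qHSCs, Gdf15 39.6% ± 33 in hypHSCs and 0.156% ± 0.166 in qHSCs and Gdf3 31.6% ± 20.6 in hypHSCs and 0.119% ± 0.0312 in qHSCs. The share of Gdf2 thus was nearly constant among qHSCs and widely among hypHSCs, where Gdf15 led in replicates 4 and 5 and Gdf3 in replicates 1, 2 and 3. The summed level was 3499 ± 2476 in hypHSCs and 27161 ± 5949 in qHSCs.

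Type I receptors went from Acvr1, with 6.80% ± 2.23 in hypHSCs and 52.2% ± 4.67 in qHSCs, to Acvrl1, with 75.2% ± 4.68 in hypHSCs and 9.21% ± 8.53 in qHSCs, while the share of Tgfbr1 was 16.0% ± 5.58 in hypHSCs and 14.6% ± 2.98 in qHSCs. Among type II receptors Acvr2a had the largest mean share in both groups, 43.8% ± 10.1 in hypHSCs and 80.0% ± 1.22 in qHSCs. The latent TGF-beta binding proteins of qHSCs were nearly all Ltbp1 and Ltbp4, and Ltbp2 held 23.2% ± 5.97 in hypHSCs and 0.0827% ± 0.103 in qHSCs. With the deposited scaling, the summed level of the receptor-regulated SMADs was 475 ± 98.2 in hypHSCs and 487 ± 26.0 in qHSCs, a difference smaller than the SDs. Within it Smad2 held 77.4% ± 6.20 in hypHSCs and 44.4% ± 3.58 in qHSCs and Smad3 9.61% ± 4.15 in hypHSCs and 28.8% ± 3.90 in qHSCs. These shares rest on canonical lengths of 1645 bases for Smad2 and 5290 for Smad3. Without division by length, Smad3 was above Smad2 in qHSCs, with means of 746 and 355 normalized counts. With the deposited scaling, the 4 Id genes summed to 41618 ± 11556 in hypHSCs and 47508 ± 9703 in qHSCs and overlapped. Of this, Id3 held 42.7% ± 10.6 in hypHSCs and 91.1% ± 2.77 in qHSCs and Id2 48.5% ± 11.5 in hypHSCs and 4.22% ± 0.751 in qHSCs. The shares of Gdf2, Acvr1, Acvrl1, Acvr2a, Ltbp2, Smad2, Smad3, Id2 and Id3 did not overlap between groups.

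**Figure D5:**
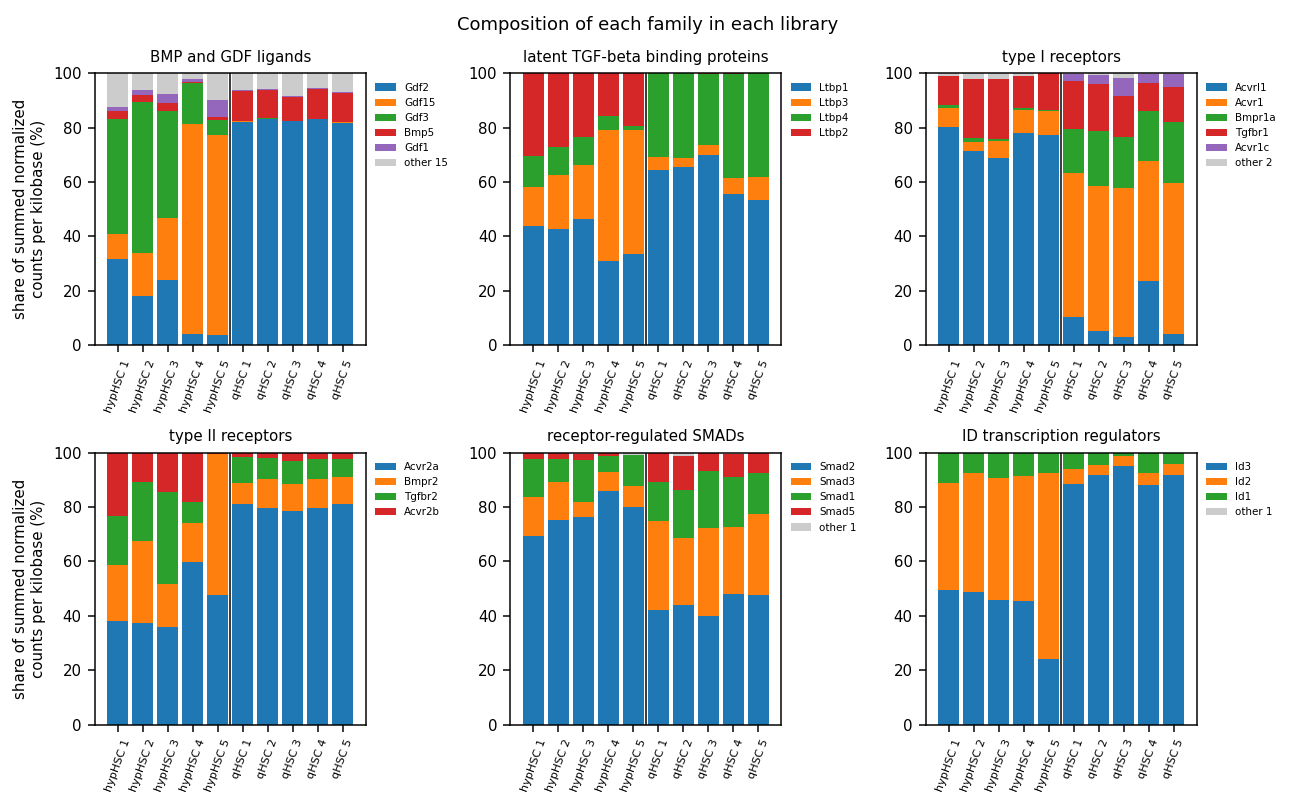
Share of each gene in the summed normalized counts per kilobase of its family, in percent, stacked for each of the 10 libraries (hypHSCs left of the line, qHSCs right); genes that never reach 5% are pooled in grey. Gdf2, Acvr1, Acvr2a and Id3 lead in all 5 qHSCs, Acvrl1 leads in all 5 hypHSCs, and Smad2 leads in all 10 libraries. The lead of Smad2 in qHSCs rests on the division by length, with canonical lengths of 1645 bases for Smad2 and 5290 for Smad3.

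The 27 members that fell had log2 fold changes of -7.96 to -1.30 with a median of -3.62. The 12 quiescent HSC markers, fitted the same way, fell by values of -11.27 to -2.87 with a median of -6.27. Of the members that fell, 19 lay within the range of the markers, 8 fell by less than every marker (among them Id3, Bmpr2, Bambi and Smad3), and Bmp10 alone fell by more than the marker median. Bmp10 had a median of 0 normalized counts in hypHSCs, so the size of its fall depends on the pseudocount of 1. The 6 members that rose had log2 fold changes of 1.5 to 6.42 with a median of 4.44, beside 3.78 to 7.21 with a median of 4.45 for the 13 macrophage markers. Tgfb1 and Id2 rose by less than every macrophage marker. Cholangiocyte markers summed to 436 to 2711 in hypHSCs and at most 56.1 in qHSCs, and neutrophil markers to 1454 to 5814 and at most 109.5. Portal fibroblast markers summed to 283 to 1881 in hypHSCs and 299 to 576 in qHSCs, and 3 of 5 tested were called higher. Endothelial markers summed to 411 to 881 in hypHSCs and 1115 to 2516 in qHSCs, and of 7 tested, 3 were called lower and 1 higher. The part of these lists in the rises and falls was not tested.

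Genes of the pathway outside the symbol rule were taken from a fixed list of 66, of which 53 were tested, 10 rose and 18 fell. These are 18.9% and 34.0% of them, beside 17.8% and 21.7% of all genes tested, so the share that rose is close to that of all genes. The median log2 fold change was -0.48. These counts moved with the scaling: 6 rose and 20 fell with libraries set to the same total, and 4 rose and 30 fell with libraries set to Hprt, Pgk1 and Actb.

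Of 6 tested genes that release or tether latent TGF-beta, 3 rose (50%) and 2 fell (33.3%), beside 17.8% and 21.7% of all genes tested. Nrros, which anchors latent TGF-beta on myeloid cells, had means of 9779.9 ± 6438 in hypHSCs and 608 ± 752 in qHSCs (SD, n = 5 each; log2 fold change 4.55, SE 0.87, adjusted p = 0.0013). Lrrc32, the anchor known from regulatory T cells and also made by stromal cells, had 225 ± 96.4 and 1358 ± 353 (log2 fold change -2.65, SE 0.31, adjusted p = 4.63e-05). The integrin subunit Itgav rose (log2 fold change 1.15, SE 0.23, adjusted p = 0.00159) and its partner Itgb8 fell (log2 fold change -3.60, SE 0.94, adjusted p = 0.0085). Furin, which cleaves the propeptide, rose (log2 fold change 1.03, SE 0.24, adjusted p = 0.00427).

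Beside 17.8% called higher and 21.7% called lower over all genes tested, 3 of 16 textbook TGF-beta target genes rose (18.8%, close to that share) and 8 fell (50%). Those that fell included Ccn2 (log2 fold change -3.34, SE 0.40, adjusted p = 5.38e-05), Postn (log2 fold change -3.64, SE 0.29, adjusted p = 2.9e-06) and the feedback inhibitor Pmepa1 (log2 fold change -2.23, SE 0.39, adjusted p = 0.000726). Cdkn1a, a cell cycle inhibitor with many other inducers, Lox and Timp1 rose, with log2 fold changes of 2.89, 2.03 and 1.76. The groups of Timp1 overlapped (exact two-sided permutation test, p = 0.0556), and removing any library other than qHSC 3 or hypHSC 5 ended its call. Col1a1, Col1a2, Col3a1 and Acta2 were not called, at 1.23, -0.12, -0.60 and 1.72. Of 5 tested textbook BMP targets, 1 fell (20%, close to the 21.7% of all genes tested) and none rose. Hamp, the iron hormone gene, was at 815 ± 761 and 1121 ± 504 normalized counts (log2 fold change -0.83, SE 0.59, adjusted p = 0.266).

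Among SMAD partners and ubiquitin ligases, 3 of 16 rose (18.8%) and 2 fell (12.5%). Over all genes tested these shares were 17.8% and 21.7%. The share that rose is close to that of all genes, and both counts rest on few genes. The related corepressor genes Tgif1 and Tgif2 went in opposite directions: Tgif1 had means of 11119 ± 1812 in hypHSCs and 1098 ± 287 in qHSCs (log2 fold change 3.36, SE 0.20, adjusted p = 3.88e-07), and Tgif2 had 54.0 ± 29.6 and 669 ± 100.4 (log2 fold change -3.75, SE 0.36, adjusted p = 1.13e-05). The ligase genes Wwp1 and Nedd4l rose, at 1.57 and 1.02, and Ski fell, at -1.08. Of 5 tested BMP antagonists outside the rule, 3 fell and none rose: Twsg1, Crim1 and Kcp, at -1.69, -1.72 and -3.26. Of 5 tested other ligands and co-receptors, Cd109 rose (log2 fold change 6.34, SE 0.90, adjusted p = 0.000166), and Vasn and Rgma fell, at -1.94 and -2.91.

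Several of these calls lay close to the log2 fold change threshold of 1 and were lost when a library was left out. Without hypHSC 5, Itgav, Furin, Nedd4l and Ski were not called, with log2 fold changes of 0.999, 0.86, 0.92 and -0.804. Furin was not called either without hypHSC 2 (0.985) or qHSC 1 (0.978), nor was Ski without qHSC 2 (-0.941). Nedd4l also lost its call without hypHSC 1 (0.925), qHSC 3 (0.993) or qHSC 4 (0.977). Calls held but values moved for Itgb8 without hypHSC 5 (-2.89), Nrros without qHSC 4 (5.19), Cd109 without qHSC 1 (7.13), Kcp without hypHSC 4 (-2.62) and Timp1 without qHSC 3 (2.41).

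The members that were not tested were read in few libraries. The 12 above the floor in some library included Bmp3, Bmp7, Bmpr1b, Chrdl1, Fst, Gdf5, Id4, Inhbb and Smad9, with at most 51.3 normalized counts in any library (Chrdl1 in qHSC 4). Bmp8a and Chrdl2 never passed 3 reads, and Nog, Grem1, Gdf7 and Bmp15 had none, where a count of 0 allows up to 2.25 to 4.54 normalized counts per library. For 34 of the 58 tested members another entry lies within the span of the gene, with a symbol in 14, and without strand information reads in such overlaps cannot be told apart.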

How the data were processed

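RNA was measured in 5 hypHSC and 5 qHSC libraries. Per the labels and the study's methods, the authors made unstranded, oligo-dT primed, paired-end libraries, mapped the reads with STAR (version 2.7.5a) to mm39, counted them per gene with featureCounts (Subread 1.5.0) and divided the counts by DESeq2 size factors. The deposited values are therefore a signal per gene, the normalized count, which is comparable between libraries only as far as these size factors are. All of the deposited values (100%) became whole reads when multiplied by a factor per library, and these reads gave the depth and the floor of 3 reads (2.25 to 4.54 normalized counts). Intervals from counts cover counting error only.

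Entries had to have a symbol and to reach 10 normalized counts in no fewer than 5 libraries. They were tested in R 4.3.3 by limma's trended eBayes (version 3.58.1) on log2(normalized count + 1), with Benjamini-Hochberg adjustment over all 14630 genes. Of the 58 members tested, 2 (Inha and Acvr1c) reached the filter in qHSCs only. On the recovered reads, edgeR (4.0.16, quasi-likelihood) called 2630 genes higher and 2650 lower, DESeq2 (1.42.0) 2862 and 2960, and limma 2602 and 3177. Because the file holds normalized counts, limma was the main test. The script was tested on simulated data. An exact two-sided permutation test over the 252 arrangements of the libraries gave p = 0.00794, the smallest it can give, for each of the 32 called members whose groups did not overlap and for Smad2. That value is fixed wherever 5 libraries do not overlap with 5 others, so it restates the lack of overlap and adds no support.

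Values in full were given for called members with groups that did not overlap and a mean normalized count of 100.0 or more in 1 group or both, and for Tgfb1 to Tgfb3, Tgfbr1 to Tgfbr3, Eng, Acvrl1, Bmpr2, Smad2, Smad3, Smad4, Smad6, Smad7, Id1 to Id3, Bambi and Inhba, 39 in all; the other 19 tested members were given by range. The members and lists were chosen with earlier results of these data known. Leaving out qHSC 1 and 4 was chosen after seeing the data. Lengths were those of canonical transcripts of GENCODE M39. The values of 2 genes are not reported here.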

Additional observations from a re-analysis of the deposited data

Results flagged for a closer look

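In groups of 5 libraries, 1 value can stand far from the other 4. Among the 78 groups of the 39 members given in full, 6 did so by Dixon's ratio at the 95% level, and chance flags about 1 group in 20. Tgfb2 was high in hypHSC 1, at 518.8 normalized counts against at most 238 in the other hypHSCs, and in qHSC 3, at 388 against at most 199 in the other qHSCs. Ltbp2 was high in qHSC 3, at 29.1 against at most 6.85, and so was Bambi, at 1150.2 against at most 881. Bmp10 was high in hypHSC 1, at 12.1 against at most 2.49. Gdf15 was high in hypHSC 4, at 11651 against at most 3495. None of the calls of Ltbp2, Bambi, Bmp10 and Gdf15 was lost without the library named, and Tgfb2 was called neither with nor without it.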

How the results depend on the processing

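All 33 called members kept their direction under all 25 alternatives, and 26 were called in every alternative that tested them. Counts of members called ranged from 5 to 8 higher and from 24 to 37 lower, and over the fits that left out 1 library from 5 to 8 and from 27 to 29. Calls were lost for Tgfb1 (7 of 10 fits that left out 1 library, pseudocount 10, filter at 1 normalized count in 1 library, same total, Hprt, Pgk1 and Actb, edgeR, 12 and 13 weeks), Chrd (DESeq2, edgeR, 13 weeks), Id3 (without hypHSC 5, 13 weeks), Bambi and Smad3 (13 weeks), and, without qHSC 1 and 4, for Bmpr2, Smad5, Id3 and Tgfb1. The cause was not tested. For the other pathway genes, setting libraries to the same total gave 6 higher, and setting them to Hprt, Pgk1 and Actb gave 4 higher and 30 lower, against 10 and 18, while leaving out 1 library gave 8 to 10 and 17 to 20. These scalings moved the median log2 fold change of all genes from -0.20 to -0.54 and -1.12, and the share of calls that were higher from 45.0% to 32.4% and 17.4%.

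Signs turned only for members that were not called. Tgfb2 was at -0.0532 with the same total, -0.63 with Hprt, Pgk1 and Actb and -0.0252 at 12 weeks. Tgfb3 was at 0.22 in DESeq2 and edgeR, 0.86 at 13 weeks and -0.67 to 0.31 over the fits that left out 1 library, above 0 without hypHSC 5, Smad4 at 0.0145 at 13 weeks, Id1 at -0.0181 and Smad2 at -0.195 with Hprt, Pgk1 and Actb. Smad6 was at -0.27 with the same total, -0.85 with Hprt, Pgk1 and Actb, -0.12 without qHSC 1 and 4, and between -0.0436 and 0.20 over the fits that left out 1 library, below 0 without hypHSC 1, hypHSC 4 or qHSC 1.

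The replicate numbers did not pair the samples, since the correlation of deviations was 0.01 to 0.13 and only 1 of 5 numbers exceeded 0.1. With the replicate block, 5 members were higher and 28 lower, with Tgfb1 no longer called and Gdf9 called lower, and 10 and 18 of the other pathway genes.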
